A study of Mus musculus with 4 samples.

Results

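The SR splicing factors are a family of RNA-binding proteins, and 10 of their genes (Srsf1, Srsf2, Srsf3, Srsf4, Srsf5, Srsf6, Srsf7, Srsf9, Srsf10 and Srsf11) were taken by symbol from the 18714 genes of a table of scaled reads in mouse 2-cell embryos. All 4 libraries came from Nelfb dTAG/dTAG embryos of an outbred ICR background, in which both copies of Nelfb, a subunit of the polymerase pausing complex NELF, carry a degron tag. Zygotes from natural matings of homozygous parents were cultured for 30 hours in KSOM medium with 500 nM dTAG-13, a degrader of tagged proteins, or with 0.01% DMSO as the vehicle. Each library held the polyadenylated RNA of 3 pooled embryos, with 2 libraries per group. The controls carried the tag as well, and effects of dTAG-13 itself cannot be told apart from those of Nelfb loss.

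SR proteins bind short enhancer sequences in exons through RNA recognition motifs (RRMs) and carry a tail rich in arginine and serine, through which they help the U1 particle and U2AF find the splice sites. Kinases of the Srpk and Clk families phosphorylate that tail, the importin Tnpo3 brings the proteins into the nucleus, and some members, Srsf3 and Srsf7 among them, hand spliced mRNA to the export receptor Nxf1. In mammals many SR genes hold a "poison" exon with an early stop codon, whose inclusion sends the transcript to nonsense-mediated decay and so limits the protein's own production. At the 2-cell stage the mRNA stored in the oocyte is being replaced by transcripts of the embryo's own genome, which have to be spliced.

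In the GENCODE M21 annotation (GRCm38) the members lie on 7 chromosomes and have 85 transcripts, of which 15 in 9 members are annotated as targets of nonsense-mediated decay; Srsf10 has 0 of these. The deposited values are per gene, so productive and decay-prone transcripts were summed. Libraries were not stranded, and reads of overlapping genes on the opposite strand cannot be assigned with certainty. Exons of other genes cover 43.0% of the exonic bases of Srsf4 (Gm12992), 25.3% of Srsf2 (Mettl23 and Mfsd11) and 1.7% of Srsf1 (Gm11508), whereas the other 7 members have no such overlap.

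Because NELF acts on polymerase just downstream of the start site, the core promoters of 4 members are shown, for the member with the highest fold change (Srsf1), the abundant member with the lowest (Srsf3), and the other 2 single-RRM members of the classical family (Srsf2 and Srsf7). Each run is the 100 bases before the RefSeq start (GRCm38.p6), 5′ to 3′ on the gene's strand, with TATAAA or TATATA in capitals.
Srsf1: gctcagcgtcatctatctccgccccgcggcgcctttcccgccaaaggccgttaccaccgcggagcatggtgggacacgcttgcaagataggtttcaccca
Srsf2: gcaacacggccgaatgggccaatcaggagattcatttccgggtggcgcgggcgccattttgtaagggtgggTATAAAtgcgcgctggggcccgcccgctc
Srsf3: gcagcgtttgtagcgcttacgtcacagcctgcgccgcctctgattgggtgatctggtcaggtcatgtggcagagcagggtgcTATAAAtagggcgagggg
Srsf7: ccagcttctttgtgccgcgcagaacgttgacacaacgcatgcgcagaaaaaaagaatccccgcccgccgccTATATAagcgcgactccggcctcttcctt
These windows are chr11:88047273-88047372 on the plus strand, chr11:116853095-116853194 on the minus strand, chr17:29032560-29032659 on the plus strand and chr17:80207306-80207405 on the minus strand. The RefSeq start of Srsf3 lies 32 bases downstream of its GENCODE start.

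All 10 members matched the RefSeq promoter table by symbol, and letters were searched on both strands of the 250 bases before the start. TATAAA was found in 2 members, Srsf2 and Srsf3, with its first base at -29 and -18, and in 13% of 27025 genes with a promoter in the table. TATATA, which can overlap TATAAA, was found in Srsf7 at -29 and in 5.6% of genes. The GC box letters GGGCGG were found in 9 of 10 members and in 32.9% of genes, TGACG in 6 of 10 and 17.9%, CGGAAG in 5 of 10 and 13.8%, and CCAAT in 3 of 10 and 34.5%. The GC content of the windows ran from 56.8% in Srsf5 to 77.2% in Srsf4, against a median of 52.0% over all genes. The members with TATA letters had log2 fold changes of 0.17 (Srsf2), -0.69 (Srsf3) and 0.40 (Srsf7). The other members ran from -2.09 (Srsf4, which had a single low library) to 1.41 (Srsf1). The next lowest of these was Srsf11 at -0.11, so Srsf3 lay below all of them but Srsf4. A link between fold change and these letters was not tested.

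Depth differed between the groups, at 38112685 and 33897568 gene reads for dTAG-13 and 18923479 and 16522506 for DMSO. Under the authors' scaling oocyte mRNA was lower in the treated embryos: the summed level of 65 listed oocyte transcripts was 481417 and 512781 scaled reads in treated libraries against 2321737 and 3434975 in controls, with 43 of 65 lower and 0 higher by limma (2 higher at an unadjusted p under 0.05). The 8 listed 2-cell genes, among them Zscan4d and Zfp352, were detected in every library, with summed levels of 41229 and 55538 against 128772 and 115057 scaled reads. Of other cell types, 6 of 14 cumulus and granulosa markers (summed 362.0 to 990.7 scaled reads, with Amh and Has2 not listed), 6 of 11 sperm markers (666.7 to 3958), 7 of 10 oviduct markers (4393 to 8498) and 4 of 8 blood markers (419.1 to 1308) were listed. The sperm sums were 1064 and 666.7 in treated libraries against 3248 and 3958 in controls, and the blood sums 454.7 and 419.1 against 1308 and 1167. The oviduct sums were separated the other way, at 8498 and 7543 against 5209 and 4393. The cumulus and granulosa sums overlapped (509.4 and 523.0 against 990.7 and 362.0). Of these markers 5 were tested, with log2 fold changes from -5.42 to 6.0 (1 positive and 4 negative). Limma called 1 of the 5 higher and 0 lower, beside 8.94% and 9.79% of all genes. The part of these differences in the results was not tested. Nelfb mRNA had 63.4 and 35.6 scaled reads with dTAG-13 and 182.5 and 69.8 with DMSO (adjusted p = 0.343, limma); the degrader acts on protein, so this does not check the labels.

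All 10 SR genes had reads in every library, and all passed the minimum mean of 10 scaled reads. Levels compared between genes are scaled reads per kb of the principal annotated transcript. On that scale Srsf5 was the most abundant member, at 19926 and 18443 with dTAG-13 and 18105 and 13655 with DMSO, and its mean stood at percentile 99.5 of 15917 tested genes with a length. Srsf7 followed with a mean of 8667 per kb over the 4 libraries. Its highest library, at 12068, lay below the lowest of Srsf5. Srsf10 (3806 per kb) and Srsf2 (3798 per kb) overlapped in their libraries, as did Srsf2 and Srsf1 (2156), and Srsf1 and Srsf3 (1799). Srsf11 (715.3) and Srsf9 (619.2) overlapped as well, Srsf6 came next (255.5), and Srsf4 was last (3.03 to 86.7 over the libraries, with its mean at percentile 44.3). With all annotated exons as the length, the order of Srsf5, then Srsf7, held by mean (6893 and 5586 per kb), while Srsf2 (2438) came before Srsf10 (2040).

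**Figure D1:**
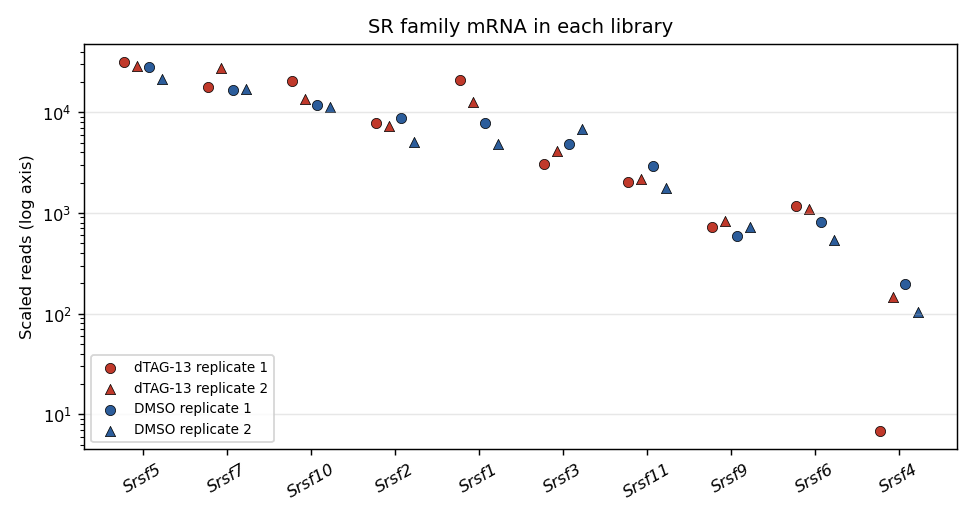
Scaled reads of each SR gene on a log axis, with 1 point for each of the 4 libraries (red, dTAG-13; blue, DMSO; circles, replicate 1; triangles, replicate 2), genes ordered by mean level per kb. The red points of Srsf1 lie above the blue ones, those of Srsf3 lie below, and Srsf4 has a single low point at 6.84 scaled reads.

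The question behind the treatment was how loss of Nelfb in the early embryo alters transcript levels. Most SR mRNAs had small fold changes under the authors' scaling: 7 fold changes were positive and 3 negative, 8 of 10 were smaller than 1 on the log2 scale, and the median was 0.27 against -0.10 for all 15978 genes tested. By limma on log2(scaled reads + 1), with Benjamini-Hochberg adjustment over all genes tested, 0 members rose and 0 fell at the 0.05 threshold, where 18.7% of all tested genes passed in either direction, 8.94% upwards and 9.79% downwards. At an unadjusted p under 0.05 there was 1 member, Srsf1, beside 39.2% of all genes; edgeR on the recovered reads called 0 members (13.6% of genes, 6.42% higher and 7.17% lower) and DESeq2 called 1, Srsf1 (31.6% of genes, 15.1% higher and 16.6% lower). Of the 10 members, 0 in the authors' deposited table had an adjusted p under 0.05, where 16.0% of listed genes did. The median size of the fold change, whatever its sign, was 0.46 for the members and 1.63 for all genes tested; the median standard errors were 0.34 and 0.80. Scaled reads are relative to the other transcripts of a library and give neither the number of cells nor the RNA per cell. A lower level can come from less of that RNA or from more of others, and these cannot be told apart here. Whether pools within a group had separate parents or days is not in the labels, so p-values measure the spread between pools, which may be technical.

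Among members with a pair of RRMs, Srsf1 showed the widest separation. Srsf1 (ENSMUSG00000018379.17, chromosome 11, 88047373 to 88053755), a regulator of constitutive and alternative splicing that was among the first SR proteins described, had 20876 and 12721 scaled reads with dTAG-13 and 7754 and 4881 with DMSO. Both treated libraries lay above both controls, although the replicates within each group also differed by 1.64 times and 1.59 times. Its log2 fold change was 1.41 ± 0.37 (SE, n = 2 per group), with a 95% interval of 0.46 to 2.35 and an adjusted p of 0.057 (limma), and the authors' deposited table gave a log2 ratio of 1.41 with an adjusted p of 0.0557. The call depended on the processing. Srsf1 passed with DESeq2 (adjusted p = 0.00179). By limma it passed with a pseudocount of 10 (0.0397), where 23.7% of genes passed, 11.4% higher and 12.3% lower. A minimum mean of 50 gave 0.0282 (34.0% of genes, 17.2% and 16.8%), and a replicate block 0.0114 (23.1% of genes, 11.6% and 11.5%). Scaling on oocyte transcripts gave 0.00528, where 45.2% of genes passed, 43.2% higher and 1.98% lower. Srsf1 did not pass with edgeR (adjusted p = 0.0763). By limma with every library kept, its adjusted p ran up to 0.18, without a variance trend. The fold change stayed positive under all 16 alternatives, from 1.05 to 1.76 with 1 library left out. The antisense gene Gm11508, which covers 1.7% of its exonic bases, had 373.8 and 299.2 against 126.1 and 71.4 scaled reads.

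Srsf6 (chromosome 2, 162931528 to 162937121), which binds exonic enhancers in many transcripts, had 1181 and 1083 scaled reads in treated libraries against 804.6 and 535.7 in controls. The groups did not overlap, yet the log2 fold change of 0.78 ± 0.37 did not pass (95% interval -0.18 to 1.74; adjusted p = 0.187, limma). Srsf5 (chromosome 12, 80945504 to 80950507), the most abundant member, had 31245 and 28918 scaled reads against 28389 and 21411. Its difference of 0.29 ± 0.23 on the log2 scale was the most tightly bounded of the family, and its interval of -0.30 to 0.87 lay inside a 2-fold difference either way (adjusted p = 0.393, limma). Srsf9 (chromosome 5, 115327177 to 115333080), a shorter relative of Srsf1, had 728.4 and 836.2 scaled reads against 584.8 and 728.8. These groups overlapped, at a log2 fold change of 0.26 ± 0.36 (interval -0.66 to 1.18).

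Srsf4 (chromosome 4, 131873617 to 131901706), the least abundant member, had 6.84 and 145.1 scaled reads with dTAG-13 and 195.7 and 103.9 with DMSO, which correspond to 11 and 208 reads against 163 and 64. A single treated library stood apart, 21.2 times below its replicate, and the other lay between the controls. The log2 fold change of -2.09 ± 1.54 (interval -6.03 to 1.86; adjusted p = 0.364, limma) was 0.02 without dTAG-13 replicate 1 and -4.20 without replicate 2. It was -0.98 by edgeR and -0.99 by DESeq2, and the log2 ratio in the authors' deposited table was -0.98. Gm12992, which overlaps Srsf4 on the opposite strand, was not low in that library, with 241.3 and 281.7 scaled reads in treated libraries against 50.4 and 129.9 in controls.

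Among members with a single RRM, Srsf3 went the other way from Srsf1. Srsf3 (ENSMUSG00000071172.12, chromosome 17, 29032628 to 29043373), the smallest SR protein and an adaptor for mRNA export, had 3089 and 4107 scaled reads in treated libraries against 4871 and 6774 in controls. Both treated libraries lay below both controls, at a log2 fold change of -0.69 ± 0.30 (interval -1.47 to 0.09; adjusted p = 0.162, limma). That sign rested on the scaling, since the value was 0.25 with libraries scaled on mitochondrial mRNAs and 1.71 with libraries scaled on oocyte transcripts. Srsf2 (chromosome 11, 116849901 to 116853094), which also takes part in release of paused polymerase, had 7760 and 7228 scaled reads against 8800 and 5058. The treated libraries lay between the controls, and the log2 fold change of 0.17 ± 0.33 was -0.12 under quantile normalization and -0.23 without DMSO replicate 2. Srsf7 (chromosome 17, 80200080 to 80207307), a relative of Srsf3 with a zinc knuckle, had 17949 and 27612 against 16615 and 17148 scaled reads, a log2 fold change of 0.40 ± 0.27 (adjusted p = 0.332, limma).

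The remaining members are less typical of the family. Srsf10 (chromosome 4, 135855747 to 135869908), known as a splicing repressor when it is dephosphorylated, had 20437 and 13571 scaled reads in treated libraries against 11929 and 11215 in controls. The groups did not overlap, and the log2 fold change was 0.53 ± 0.27 (interval -0.17 to 1.22; adjusted p = 0.217, limma). Srsf11 (chromosome 3, 158010473 to 158036639), an SR-like protein, had 2017 and 2195 scaled reads against 2901 and 1774. The treated libraries lay between the controls, at a log2 fold change of -0.11 ± 0.35; it turned to 0.83 and 2.29 with libraries scaled on mitochondrial mRNAs and oocyte transcripts, and to 0.25 without DMSO replicate 1.

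**Figure D2:**
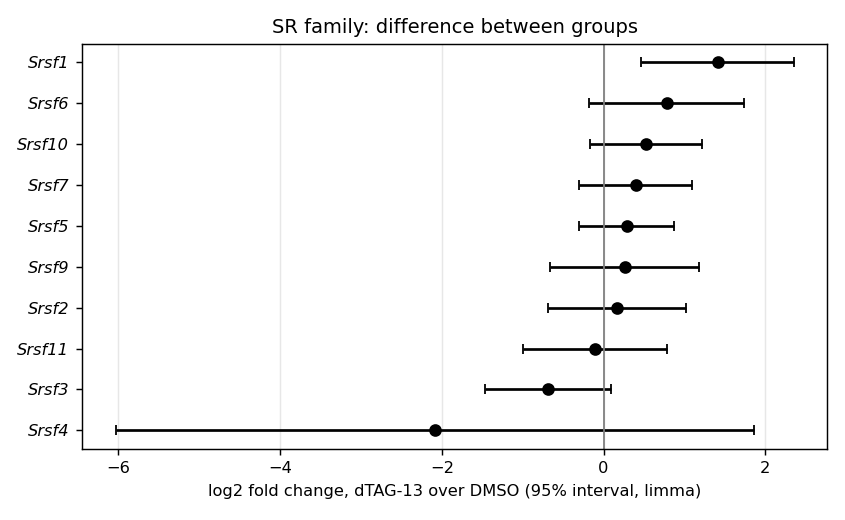
The log2 fold change of each SR gene, dTAG-13 over DMSO, with its 95% interval from limma (2 libraries per group). The interval of Srsf1, 0.46 to 2.35, is the 1 interval that leaves out 0, and that of Srsf4 spans -6.03 to 1.86.

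Over the family, 5 members had both treated libraries above both controls (Srsf1, Srsf5, Srsf6, Srsf7 and Srsf10) and 1, Srsf3, had both below. Among all genes tested the groups were separated this way in 32.2% upwards and 34.5% downwards. The SR genes together took 0.444% and 0.416% of all reads after treatment, against 0.365% and 0.260% in controls. Both treated libraries held the larger share.

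Ratios between members within a library do not depend on how libraries were scaled. Srsf1 over Srsf3, a pair chosen after their values were seen, was 6.76 and 3.10 with dTAG-13 and 1.59 and 0.721 with DMSO. Every treated library had a higher ratio than either control. This follows from the separation of Srsf1 upwards and of Srsf3 downwards given above, and adds nothing to it. Srsf1 over Srsf2 was 2.69 and 1.76 against 0.881 and 0.965. As shares of the family's summed level per kb, Srsf1 made up 8.85% and 5.43% in treated libraries against 3.78% and 2.87% in controls, and Srsf3 made up 2.68% and 3.59% against 4.87% and 8.16%. Shares of Srsf6 were also separated upwards (0.761% and 0.703% against 0.597% and 0.479%) and those of Srsf11 downwards (1.48% and 1.62% against 2.44% and 1.80%). Srsf5 had the largest share in all 4 libraries, between 42.2% and 47.3%. The size of these shares depended on the length used: with all annotated exons Srsf5 held 31.3% to 36.7%, below Srsf7 (33.5%) in dTAG-13 replicate 2. On that length Srsf1 made up 15.6% and 9.61% after treatment against 7.01% and 5.34%, and Srsf3 1.67% and 2.24% against 3.18% and 5.35%, so that both stayed separated in the same direction. An exact permutation test of 2 against 2 libraries cannot reach a p under 0.05, so these separations are given without a test.

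**Figure D3:**
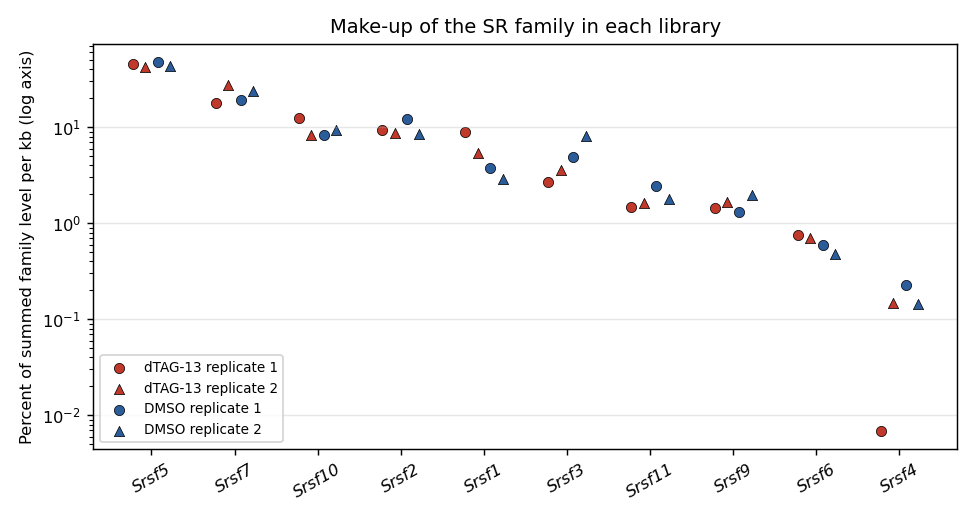
Percent of the SR family's summed level per kb of principal transcript held by each member, on a log axis, with 1 point per library (red, dTAG-13; blue, DMSO; circles, replicate 1; triangles, replicate 2). On this length Srsf5 holds 42.2% to 47.3% (31.3% to 36.7% with all annotated exons), while the red and blue points of Srsf1 and of Srsf3 are separated in opposite directions.

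How the libraries were scaled set the sign of several members. With TMM the median of the members was 0.30 and with quantile normalization 0.21, beside -0.07 and 0.08 for all genes; quantile normalization thus lowered the members' median while it raised that of all genes. With libraries scaled to equal levels of the 13 mitochondrial mRNAs it was 1.21, beside 0.79 for all genes. Limma then called 0 members and also 0 of all 15978 genes. At an unadjusted p under 0.05 by limma there were 3 members, all higher, beside 4162 genes up and 1403 down. With the oocyte transcripts held equal between libraries, 9 of 10 members were higher, all but Srsf4, where 43.2% of all genes were higher and 1.98% lower (45.2% in all), and the members' median was 2.67 beside 2.18 for all genes. Under each of these scalings Srsf1 was the highest member and Srsf4 the lowest.

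**Figure D4:**
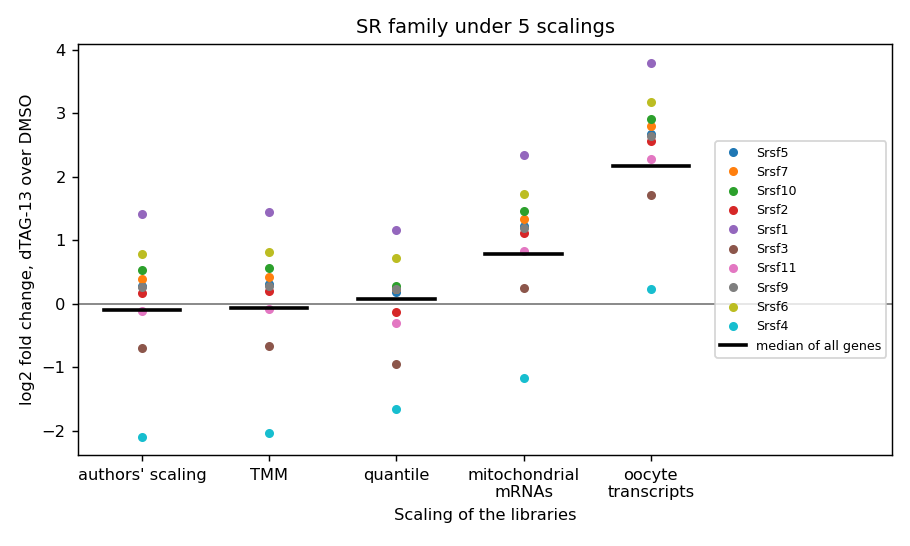
The log2 fold change of each SR gene under 5 scalings of the libraries, with the median of all tested genes as a black bar. The bar lies at -0.10 under the authors' scaling and at 2.18 on oocyte transcripts, where the members' median is 2.67, and Srsf1 stays at the top of each column.

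The enzymes that phosphorylate SR proteins were read from a list of 11 kinases, of which 1 was higher, 1 lower and 9 did not pass (median log2 fold change 0.73; 8.94% of all genes were higher and 9.79% lower). Clk1, a nuclear kinase of the SR tail, had 11875 and 17422 scaled reads in treated libraries against 5990 and 4287 in controls. It rose by 1.5 ± 0.31 on the log2 scale (adjusted p = 0.0372, limma). The gene did not pass by limma under quantile normalization (1.23) or without a variance trend (1.5). It also did not pass with libraries scaled on mitochondrial mRNAs (2.45), where 0 of all 15978 genes did. With 1 library left out its value ran from 1.23 to 1.78. Its paralog Clk4 had a log2 fold change of 1.32 ± 0.37 with no overlap between groups, short of the threshold (adjusted p = 0.0633, limma). Srpk2, a mainly cytoplasmic SR kinase, had 2216 and 2184 scaled reads against 5985 and 7969. It fell by 1.65 ± 0.27 (adjusted p = 0.0262, limma), but was 0.75 with libraries scaled on oocyte transcripts. Srpk1, the closest relative of Srpk2, had 8692 and 8284 against 7413 and 10584 scaled reads (-0.06 ± 0.26). Prpf4b, a kinase of the spliceosome, had a log2 fold change of 0.94 ± 0.30 (adjusted p = 0.0829, limma).

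SR-related proteins carry arginine and serine repeats outside the Srsf family. Of 28 listed, 27 were tested. Of these 9 rose, 1 fell and 17 missed the threshold (33.3% higher and 3.7% lower, beside 8.94% and 9.79% of all genes), and the median log2 fold change was 1.15. Tra2a and Tra2b, partners of SR proteins on exonic enhancers, had no overlap between groups: Tra2a had 4655 and 4341 scaled reads in treated libraries against 1377 and 1258 in controls. Tra2b had 39112 and 34694 against 14666 and 11298. They rose by 1.77 ± 0.26 and 1.52 ± 0.23 on the log2 scale (adjusted p = 0.0233 and 0.0242, limma). Bclaf1, a nuclear protein of RNA processing, rose by 2.08 ± 0.30, and Ppig, a cyclophilin that binds SR tails, rose by 1.60 ± 0.20. The list member that fell was Srek1ip1, an interactor of an SR-related protein (-2.22 ± 0.50), which was 0.18 under scaling on oocyte transcripts, -2.82 without DMSO replicate 1 and -1.62 without DMSO replicate 2. Srsf12, which is not among the 10 members, was below the minimum level, with 11.2 and 0 scaled reads with dTAG-13 and 0 and 4.87 with DMSO.

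The next list holds 20 genes whose proteins recognise splice sites early, with help from SR factors. Of their mRNAs 7 rose, 1 fell and 12 missed the threshold (35.0% higher and 5.0% lower, beside 8.94% and 9.79% of all genes; median 0.69). Sf3a1 and Sf3b6, subunits of the U2 particle, rose by 2.23 ± 0.34 and 1.70 ± 0.26 (adjusted p = 0.0244 and 0.0249, limma), as did the U1 proteins Snrpc (2.22 ± 0.22) and Snrpa (2.33 ± 0.26). The U1 protein Snrnp70 (0.75 ± 0.47) and the U2AF subunits U2af1 (0.26 ± 0.24) and U2af2 (1.37 ± 0.95) did not pass. The member that fell was U2af1l4, a paralog of the small U2AF subunit (-1.92 ± 0.36, and 0.47 under scaling on oocyte transcripts). Of 27 hnRNP genes, whose proteins often oppose SR factors at exons, 5 rose, 3 fell and 19 missed the threshold (18.5% and 11.1%, beside the same background; median 0.62). Hnrnpf and Hnrnph3, which bind G-rich RNA, rose by 1.84 ± 0.23 and 2.43 ± 0.32. The polypyrimidine tract proteins Ptbp2 and Ptbp3 fell by 2.41 ± 0.30 and 2.19 ± 0.29 (adjusted p = 0.0219 and 0.0224, limma), and under scaling on oocyte transcripts their values were -0.02 and 0.20. Hnrnph1 was the remaining member that fell (-1.56 ± 0.30, and 0.84 under that scaling), and Hnrnph2, Hnrnpm and Syncrip rose by 2.35, 1.46 and 2.18.

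Of 22 tested genes of SR import and mRNA export, 3 rose, 3 fell and 16 missed the threshold (median 0.80). These shares, 13.6% each way, lie near those of all genes (8.94% and 9.79%). Tnpo3, the importin of SR proteins, had 11378 and 11429 scaled reads in treated libraries against 2206 and 865.2 in controls. It rose by 3.04 ± 0.49 on the log2 scale (adjusted p = 0.0256, limma), and leaving out DMSO replicate 1 or 2 gave 3.72 or 2.37. Ncbp2, the small subunit of the nuclear cap-binding complex, rose by 2.16 ± 0.23, while Zc3h14, a poly(A)-binding protein, and Ddx19a, a helicase of the export step, fell by 1.98 ± 0.25 and 2.16 ± 0.40 (0.42 and 0.24 under scaling on oocyte transcripts). Thoc7, of the THO export complex, also fell (-1.41 ± 0.33, and 0.99 under that scaling), and Sarnp, a partner of the export machinery, rose by 2.07 ± 0.42. Of 17 tested genes of nonsense-mediated decay and the exon junction complex, 2 rose, 1 fell and 14 missed the threshold (median 1.34). These shares, 11.8% and 5.88%, also lie near those of all genes. Upf2, a core factor of the decay pathway, had 3938 and 5018 scaled reads in treated libraries against 1855 and 1669 in controls, and rose by 1.34 ± 0.28 on the log2 scale (adjusted p = 0.0372, limma). Pnrc2, which links the pathway to decapping, fell by 2.07 ± 0.48 (0.32 under scaling on oocyte transcripts), and Upf3b had a log2 fold change of 1.95 ± 0.49 (adjusted p = 0.0531, limma).

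The number of calls in these 6 lists, like that over all genes, depended on having all 4 libraries. Of the 124 tested genes in these lists 27 were higher and 10 lower, beside 8.94% and 9.79% of all genes. With 1 library left out a group holds a single library, and fewer genes passed in these lists and over all genes alike. The median log2 fold change of the 124 genes stayed between 0.66 and 0.98 in these fits, beside 0.86 with all libraries. With DESeq2 49 were higher and 11 lower (15.1% and 16.6% of all genes), and with edgeR 25 and 8 (6.42% and 7.17%). With libraries scaled on oocyte transcripts these numbers were 103 and 0 (43.2% and 1.98% of all genes; 0 lower also by limma at an unadjusted p under 0.05). With libraries scaled on mitochondrial mRNAs 0 passed by limma, with 65 up and 2 down at an unadjusted p under 0.05. Over all 15978 genes 0 passed as well, with 4162 up and 1403 down at that unadjusted p. Whether the lists differ from the SR family was not tested.

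**Figure D5:**
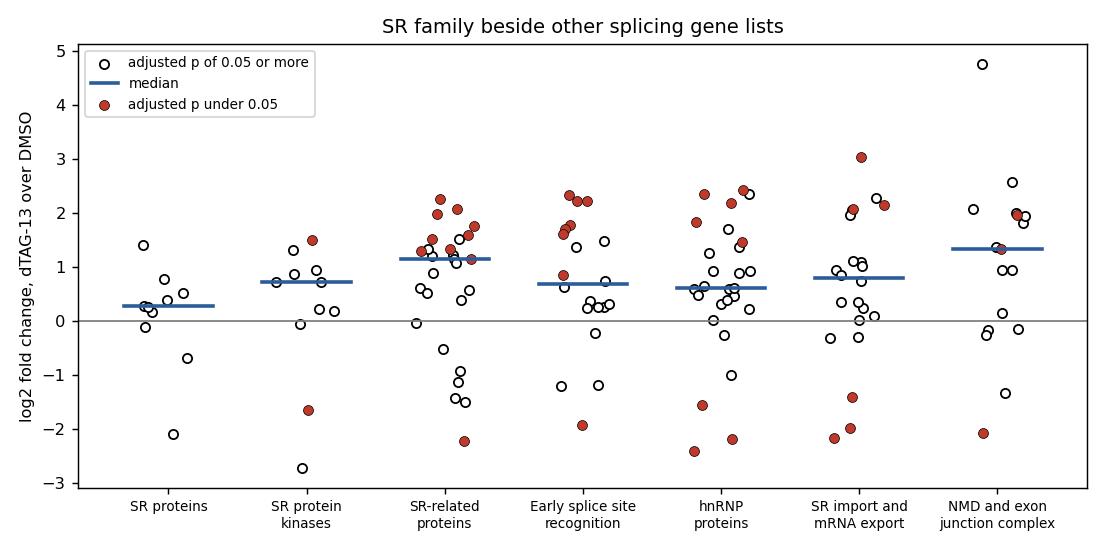
The log2 fold change, dTAG-13 over DMSO, of the SR genes and of the tested members of 6 other splicing lists, with 1 point per gene, filled in red where the adjusted p by limma was under 0.05 and a blue bar at each median. The SR column has 0 filled points and a median of 0.27, and the medians of the other lists run from 0.62 to 1.34.

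The genes closest in pattern to Srsf5, the member with the highest mean, were sought by Euclidean distance between log2 profiles centred on their mean over the 4 libraries, among the 9404 genes averaging 100 scaled reads or more. They were Mrpl18 (distance 0.0274), Cdk6 (0.0372) and Krr1 (0.059). Mrpl18, a mitochondrial ribosomal protein gene, had 3791 and 3561 scaled reads in treated libraries against 3522 and 2661 in controls.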

How the data were processed

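RNA from 4 pools of 3 embryos each was sequenced, and 2 tables were deposited: scaled reads of 18714 genes, and the authors' own comparison. The submitters' processing notes name mm10, bcl2fastq, Picard, HTSeq and DESeq. The sources used here give neither aligner nor annotation release. Each deposited signal value is a gene's read number after division by the library's size factor. Multiplying back gave whole numbers of reads, within 1e-04, for 100% of values. A count of 0 allows 3 reads, or 1.87 to 4.87 scaled reads, for counting error alone. The authors' deposited p-values and adjusted p-values compare treated with DMSO, and the deposited log2 values are their log2 ratios of group means.

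Groups and replicate numbers came from the sample titles, and columns were matched by treatment and number. The 15978 genes averaging 10 scaled reads or more were tested on log2(value + 1) with limma 3.58.1 in R 4.3.3, using a mean-variance trend, two-sided, with Benjamini-Hochberg adjustment over all genes and a threshold of 0.05. The pseudocount shrinks differences of low genes, while a mean of logs gives a single low library more weight than a ratio of means does. The procedure was tested on simulated counts with the same spread setting for every gene and no general shift between groups. That test does not show how the procedure performs at the spread of these data. Alternatives were edgeR 4.0.16 and DESeq2 1.42.0 on the recovered reads, other scalings (the oocyte scaling used 65 transcripts), pseudocounts and filters, no trend, a replicate block, and each library left out. Named genes are the 10 members, up to 4 genes with the smallest p in each list, and the nearest profiles of the most abundant member; Srpk1, Srsf12, Srek1ip1, U2af1l4, Hnrnph1, Hnrnph2, Hnrnpm, Syncrip, Thoc7, Sarnp and the overlapping genes were named after their values were seen, and 1 gene that the rule chose is not reported here. Snrnp70, U2af1 and U2af2 were also named after their values were seen. The members and lists were chosen with earlier results of these data known. GENCODE M21 shares the build, but the version numbers of some gene identifiers differ from the files.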

Additional observations from a re-analysis of the deposited data

How the results depend on the processing

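The SR members gave 0 higher and 0 lower calls in the main test. The number higher was 1 (Srsf1) with DESeq2, a pseudocount of 10, a minimum mean of 50 and the replicate block. It was 9 with libraries scaled on oocyte transcripts, where 43.2% of all genes were higher. In the other fits with every library kept it was 0, and 0 members were lower in any of these fits. At an unadjusted p under 0.05, Srsf3 was lower with DESeq2 and with limma after quantile normalization, beside 3442 and 3072 of all 15978 genes. Of 160 member values under the alternatives, 9 had the opposite sign: Srsf2 (-0.12 by quantile normalization, and -0.23 to 0.57 with 1 library left out), Srsf3 (1.71 on oocyte transcripts, 0.25 on mitochondrial mRNAs), Srsf4 (0.24 on oocyte transcripts, -4.20 to 0.02 with 1 library left out) and Srsf11 (2.29 and 0.83 under these scalings, -0.46 to 0.25 with 1 library left out). Of 384 values of 24 genes of other lists chosen by the rule, 5 had the opposite sign, all on oocyte transcripts: Srpk2 (0.75), Ptbp3 (0.20), Zc3h14 (0.42), Ddx19a (0.24) and Pnrc2 (0.32). The cause was not tested. Calls were less stable than signs. Of the 124 tested genes in these lists, limma called 0 on mitochondrial mRNAs and 0 without a variance trend. At an unadjusted p under 0.05 by limma there were 65 up and 2 down in the mitochondrial fit, beside 4162 and 1403 of all 15978 genes. Without the trend there were 27 up and 11 down, beside 2349 and 2935 of all genes.

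Over all genes, 1428 were higher and 1565 lower. These counts were 2406 and 2650 with DESeq2, 6904 and 317 on oocyte transcripts, 209 and 380 without a variance trend, and 0 and 0 by limma on mitochondrial mRNAs (4162 and 1403 at an unadjusted p under 0.05). With 1 library left out they ran from 0 to 360 and from 0 to 773; the lone library is then assumed to vary like the others. Deviations of same-numbered libraries had a correlation of -0.0142, so the numbers were not taken to pair them; the replicate block gave 1855 higher and 1832 lower genes. With 2 libraries per group, a 2-fold difference lay inside the 95% interval of most members.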
